A study of Arabidopsis thaliana with 12 samples.

Results

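Transcripts that were dim in flowers of Col-0 and bright in flowers of at least 1 other Arabidopsis accession were represented by 41 of 22593 probe sets on the ATH1 array. The members were selected on the measured signals themselves. A probe set was a member when its mean signal on the Col-0 arrays was 20 or less and its signal in another accession was 100 or more, with nuclear probe sets considered and AOP3, QQS and FPT2 set aside beforehand. Of the probe sets set aside by name, AOP3 alone met the limits. Below, an accession at 100 or more is said to carry a member. Because these limits fixed the low end in Col-0 and the high end in a carrier, the levels in both are given as a description without a test.

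The study compared flowers of natural accessions that accumulate saiginols, which are phenylacylated flavonol glycosides, with flowers of accessions that do not. RNA from flowers of the 5 producers C24, Cvi, Da, RLD and Rsch and of the 5 non-producers Ler, Sap, Stw, Ws and Col-0 was hybridized to 12 arrays. C24 and Col-0 had 2 arrays each, called ExpI and ExpII, and each other accession had 1. No treatment, transgene, age or plant number is named in the labels, and the duplicate hybridizations may share plants, so differences between them may be technical. The values are scaled signal intensities without a unit, with array medians of 46 to 51.1. The ecotype field contradicts the title on a pair of arrays, being RLD on the one titled Sap and Sap-0 on the one titled Stw. The titles were used. The number of members and the comparison of producers with non-producers are given below with and without those arrays. Other counts and values are given with them only.

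Accessions of a selfing plant are near-homozygous lines, and they differ in single bases, in the presence of whole genes and in the activity of promoters. A transcript can therefore be abundant in one line and close to background in another. The ATH1 array carries probes designed on the Col-0 genome, so weaker probe binding through sequence differences would lower other accessions and not Col-0. The signals come from whole flowers, in which fewer cells of a type and less RNA per cell cannot be told apart.

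In Col-0, the mean signal of the members lay between 0.55 and 19.6 with a median of 10.3, and their highest signal in any accession lay between 100.3 and 824.7 with a median of 134.2. The highest signal was 5.80 to 598 times that of Col-0, with a median of 13.8. The word silent holds for some members better than for others. The 27 control probe sets for bacterial genes reached 16.6 at most on any array, and 29 members (70.7%) had a Col-0 mean at or under that level. Among the probe sets that met the Col-0 limit of 20 the share was 89.3%. The other 12 members lay between that level and the limit of 20. Both Col-0 arrays were at 20 or less for 27 members, while 1 of the arrays was above 20 for 14 members and reached 29.7 at most. A Col-0 signal of 20 or less was common, with 7199 probe sets (31.9%), of which the members made up 0.570%. Detection calls were not used, and neither 20 nor 16.6 is a detection limit.

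**Figure D1:**
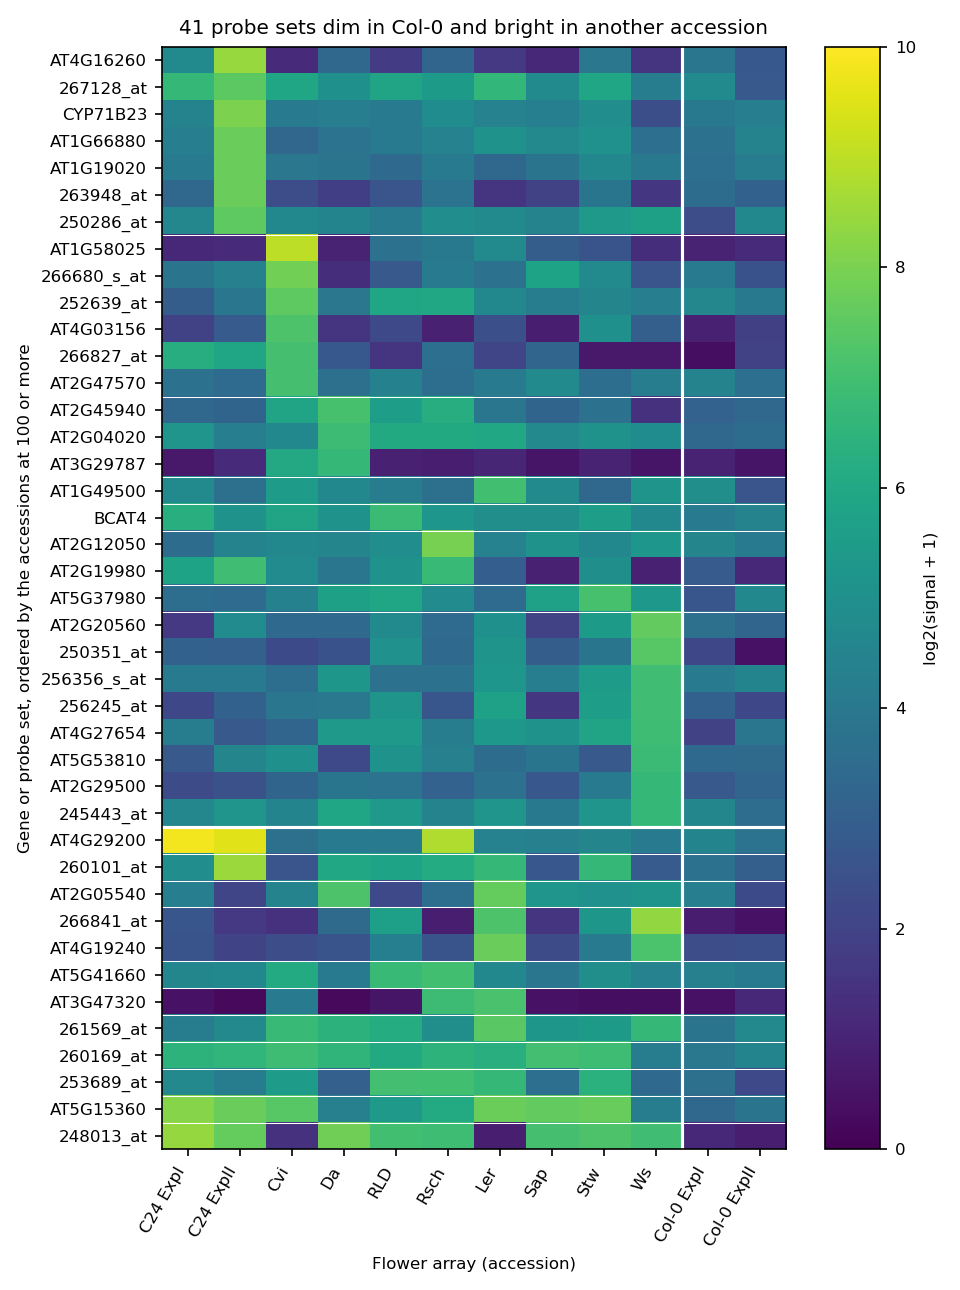
Signal of the 41 members on each of the 12 flower arrays, as log2(signal + 1) by colour, with genes or probe sets down the page and arrays across it. Rows are ordered by the accessions at 100 or more, with the 29 members carried by 1 accession above the thick line and the 12 carried by several below it; the Col-0 arrays stand at the right, where 27 members have both arrays at 20 or less.

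Most members were bright in a single accession. Of the 41, 29 were carried by 1 accession alone, 7 by 2 accessions, 3 by 3, 1 by 5 and 1 by 7. Ws carried 12 members, C24 11, Cvi 9, Ler 8, Rsch 7, Da 5, Stw 5, RLD 4 and Sap 3. These counts move with the arrays and limits used. With Col-0 ExpI alone as the Col-0 value, Ws carried 19, C24 14, Ler 14, Cvi 11, Da 10, and RLD, Rsch, Sap and Stw 8 each. With Col-0 ExpII alone, C24 carried 12, Ws 10, Cvi 9, Rsch 8, Da and Ler 7 each, Sap 5, Stw 4 and RLD 3. With a limit of 200 in place of 100, C24 and Ler carried 3 each, Cvi and Rsch 2 each, Da, Stw and Ws 1 each, and RLD and Sap 0. As the single carrier, Ws stood with 8 members, C24 with 7, Cvi with 6, Da with 3, Rsch with 2, and RLD, Ler and Stw with 1 each, while Sap was the single carrier of none. Producers alone carried 21 members, non-producers alone 12, and accessions of both kinds 8. These counts are not on an equal footing, since 5 producers but, with Col-0 fixed as dim, 4 non-producers could carry a member. Of the 21, 6 were carried by C24 alone and reached 100 on its ExpII array only. Besides Col-0, a median of 5 of the 9 other accessions lay at 20 or less, so that Col-0 was usually 1 of several dim accessions. It was the lowest of the 10 accessions for 8 members.

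**Figure D2:**
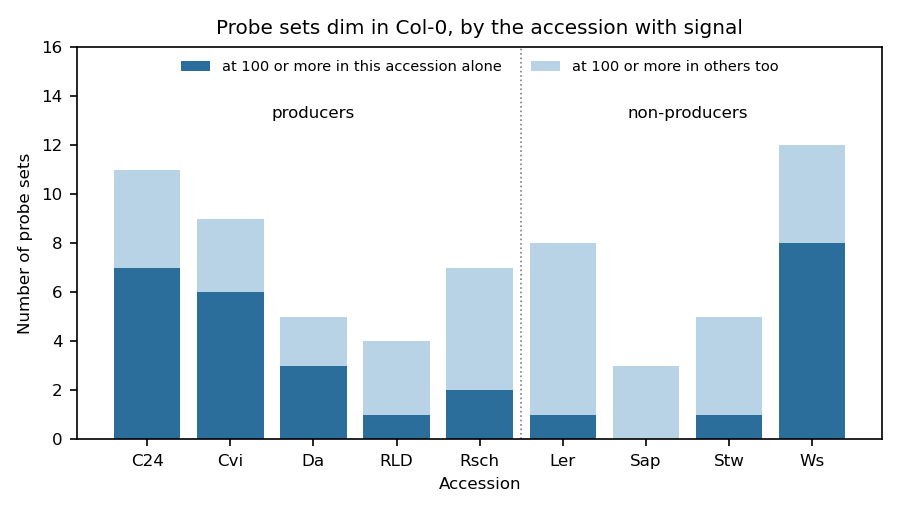
Number of members (vertical axis, probe sets) at 100 or more in each accession (horizontal axis), with the dark part of a bar for members carried by that accession alone and the light part for those carried by others too. Ws reaches 12 members, 8 of them alone, and C24 reaches 11, 7 of them alone, while Sap reaches 3, none alone.

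The same limits were set with each other accession in the place of Col-0. They found 59 probe sets dim in Cvi and bright elsewhere, 55 in Da, 55 in RLD, 53 in Sap, 52 in Rsch, 46 in Stw, 44 in Ler, 43 in Ws and 39 in C24, against 41 in Col-0. Of these, 4 (Ws) to 17 (Stw) per accession had Col-0 itself at 100 or more, which cannot occur where Col-0 is the dim accession. Without them the other accessions had 28 to 45 probe sets. Leaving them out takes a possible bright accession from each of the others and none from Col-0. The 28 to 45 are therefore not on an equal footing with the 41. The counts depend on the arrays averaged, since accessions with 2 arrays are smoothed. With 1 Col-0 array alone, Col-0 gave 42 (ExpII) or 52 (ExpI), and with 1 C24 array alone, C24 gave 53 (ExpI) or 49 (ExpII).

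The clearest separations between accessions were found by ordering the 10 accession signals of a member and taking the largest ratio of neighbours, as signal + 1, a measure chosen after the values were seen. This step was at least 5-fold for 12 members, of which 7 had several accessions above it and 5 had 1. Among the 5, AT4G16260 and 263948_at had C24 above the step through ExpII, with 353.1 and 209.8. On C24 ExpI they had 25.7 and 9.2. Over all members, the largest step had a median of 3.61 and was at least 1.61. For 6 members no accession lay between 20 and 100.

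**Figure D3:**
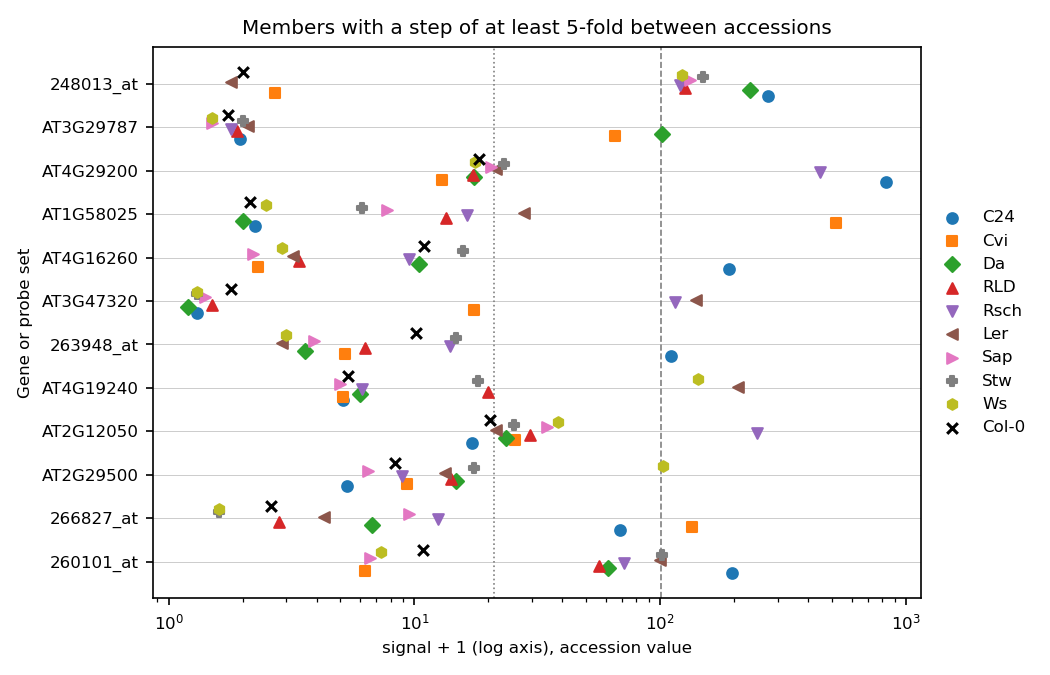
Signal + 1 on a log axis (horizontal) for the 12 members with a step of at least 5-fold between neighbouring accessions (vertical), 1 symbol per accession, with C24 and Col-0 as means of 2 arrays. Dotted and dashed lines mark the limits of 20 and 100; 248013_at has 7 accessions from 119.2 upwards and Ler, Col-0 and Cvi at 1.7 or less.

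The member 248013_at, for which the gene table gives no gene, had the widest step, 44.5-fold. Its signal was 344.7 and 199.4 on the C24 arrays, 229.9 in Da, 124.9 in RLD, 119.2 in Rsch, 131.5 in Sap, 148.5 in Stw and 122.0 in Ws, against 1.2 and 0.8 on the Col-0 arrays. Cvi and Ler, with 1.7 and 0.8, were as dim as Col-0, so this probe set divided the accessions into 7 bright and 3 dim ones with none between. AT5G15360, carried by 5 accessions, was graded. It had 292.0 and 211.1 on the C24 arrays, 166.2 in Cvi, 214.2 in Ler, 192 in Sap and 201 in Stw, against 9.1 and 13.4 in Col-0. Da with 19.6 and Ws with 17.6 were dim as well, and RLD with 41.8 and Rsch with 67.8 stood between.

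Pseudogene AT3G29787 was bright in Da with 100.3 and in Cvi with 64.6, against 1.0 and 0.5 on the Col-0 arrays. The C24 arrays had 0.6 and 1.3, and the other 6 accessions 0.5 to 1.1, which left a 31.2-fold step below Cvi. A second pseudogene, AT3G47320, had 138.1 in Ler and 113.5 in Rsch, against 0.4 and 1.2 in Col-0. Cvi followed with 16.4, within the level that bacterial controls reached, and the other 6 accessions had 0.5 or less. Its largest step lay below Cvi, between signals that were both at background, which was the case for none of the other 11 members with a step of at least 5-fold. The lower of its carriers, Rsch, had 6.92 times the signal of Cvi.

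AT4G29200 had the highest signal of a member in any accession. It had 899.8 and 749.6 on the C24 arrays and 444.3 in Rsch, against 21.7 and 12.9 on the Col-0 arrays. The other 7 accessions lay between 12 and 22.2, so the step was 19.2-fold and separated C24 and Rsch, both producers, from all others. AT4G19240 was bright in Ler (206.7) and Ws (140.9), against 4.2 and 4.5 in Col-0. RLD with 19.0 and Stw with 17.1 were the next accessions, and the other 5 lay at 4.0 to 5.1. The probe set 266841_at, with no gene in the table, had the same carriers, Ws with 328.8 and Ler with 145.3, against 0.7 and 0.4 in Col-0. RLD (49.5) and Stw (38.4) again came next, and the remaining accessions had 0.8 to 9.9. For both members, then, the order of the brightest 4 accessions differed only in the places of Ws and Ler. These 2 members were the ones set side by side after their values were seen.

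Among the other members carried by several accessions, AT2G05540, a glycine-rich protein gene, had 200.6 in Ler and 147 in Da, against 18.2 and 3.8 in Col-0, while the other accessions covered 3.6 to 36.6. AT5G41660 had 125.8 in Rsch and 109.6 in RLD, against 19.3 and 17.0 in Col-0, with Cvi next at 67.7. The probe set 253689_at had 129.5 in RLD, 124.6 in Rsch and 100.0 in Ler, against a mean of 7.8 in Col-0, and its values filled the range between, with 83.3 in Stw and 45.1 in Cvi. For 260169_at the pattern was the reverse of a rare signal. Its 8 brightest accessions lay between 66.6 and 128.5, with Sap, Stw and Cvi over 100, and only Ws with 17.8 was as dim as Col-0 with 18.5. The probe set 261569_at had 170.6 in Ler, 107.1 in Cvi and 101.3 in Ws, against 19.1 in Col-0, and no other accession was at 20 or less. Thus the limit of 100 cut through graded values in the last 3 probe sets.

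Ws was the single carrier of 8 members. AT2G20560, a DnaJ-type heat shock chaperone gene, had 194.6 in Ws, against 11.9 and 8.7 on the Col-0 arrays, and 42.4 in Stw, 31.7 in Ler and 26.4 in RLD. AT2G29500, which encodes a class I small heat shock protein, had 101.5 in Ws, against 6.0 and 8.7 in Col-0, and at most 16.4 in the other accessions, a 5.89-fold step. AT4G27654 had 118.1 in Ws, against 2.9 and 14.2 in Col-0, and AT5G53810, of the O-methyltransferase family, had 112.5 in Ws, against 9.85 as the Col-0 mean. The 4 probe sets without a single gene name had 169.5 (250351_at), 120.5 (256356_s_at), 119.6 (256245_at) and 100.7 (245443_at) in Ws, against Col-0 means of 1.95, 19.4, 5.60 and 16.9. Over the 8 members the median signal was 118.85 in Ws, 39.2 in Stw, 35.75 in Ler and 32.45 in RLD, against 9.20 in Col-0, and it was 10.2 to 14.35 in the other 5 accessions. The second highest accession was Stw for 4 of the 8 members, Ler for 2, and RLD and Da for 1 each. Ws has 1 array, so these values carry no error of their own.

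Since a DnaJ and a small heat shock gene were among these members, 12 genes of small heat shock proteins were looked up, a list chosen after the values were seen. Besides AT2G29500, 4 of them had a probe set named for that gene alone. In all 4 Ws was the highest of the 10 accessions, as it was in 7.27% of all probe sets. Since signals in Ws had prompted the list, the 4 cannot be read against that share. HSP15.7 (AT5G37670) had 56.6 in Ws and 34.5 in Ler, against 22.2 and 8.2 on the Col-0 arrays. HSP22 (AT4G10250) had 34.8 in Ws, against 23.9 and 14.6 in Col-0. HSP23.5 (AT5G51440) had 22.3 in Ws, against 1.3 and 7.2 in Col-0, and HSP17.6C (AT1G53540) had 20.6 in Ws, against 26.9 and 5.3 in Col-0. Both of these Ws signals lay little above the 16.6 that bacterial controls reached. Ws exceeded the next accession by 1.23 to 1.64 times in these 4 genes, and the Col-0 arrays of HSP17.6C lay on both sides of Ws. The differences were thus small beside that of AT2G29500, and no test of them was made.

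Cvi was the single carrier of 6 members. AT1G58025, which encodes a DNA-binding protein with a bromodomain, a module that binds acetylated lysine, had 519.2 in Cvi, against 1.0 and 1.3 on the Col-0 arrays. The 8 other accessions lay between 1.0 in Da and 26.9 in Ler, so the step below Cvi was 18.6-fold. AT4G03156 had 147.8 in Cvi, against a Col-0 mean of 1.80, with 31.8 in Stw and at most 7.2 elsewhere. AT2G47570, of the ribosomal protein L18e/L15 family, had 132.8 in Cvi, against 21.2 and 11.7 in Col-0, and at most 26.6 in the other accessions. The probe set 266680_s_at, whose suffix marks probes shared between transcripts, had 232.2 in Cvi, against 10.85 in Col-0, and 252639_at had 184, against 19.6, with 60.3 in Rsch and 58.2 in RLD. For 266827_at, Cvi had 133 and the C24 arrays 75.0 and 60.2, against 1.60 in Col-0, and the step of 5.49-fold lay below C24, so that C24 and Cvi stood together above accessions of 0.6 to 11.5. The median over the 6 members was 165.9 in Cvi, against 6.325 in Col-0 and at most 16.8 in any other accession.

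C24 was above 100 as a mean for 11 members, and its duplicate arrays divided them. Both C24 arrays were at 100 or more for 4 members, namely AT4G29200, AT5G15360, 248013_at and 267128_at. The last had 100.2 on ExpI and 178.1 on ExpII, against 26.8 and 6.0 on the Col-0 arrays, with 97.4 in Ler. The other 7 were at 100 or more on ExpII only, with 184.1 to 360.2 on that array and 9.2 to 28.8 on ExpI, a ratio of 7.83 to 22.8. No member carried by C24 was bright on ExpI only. These 7 members hold 6 of the 7 for which C24 was the single carrier.

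**Figure D4:**
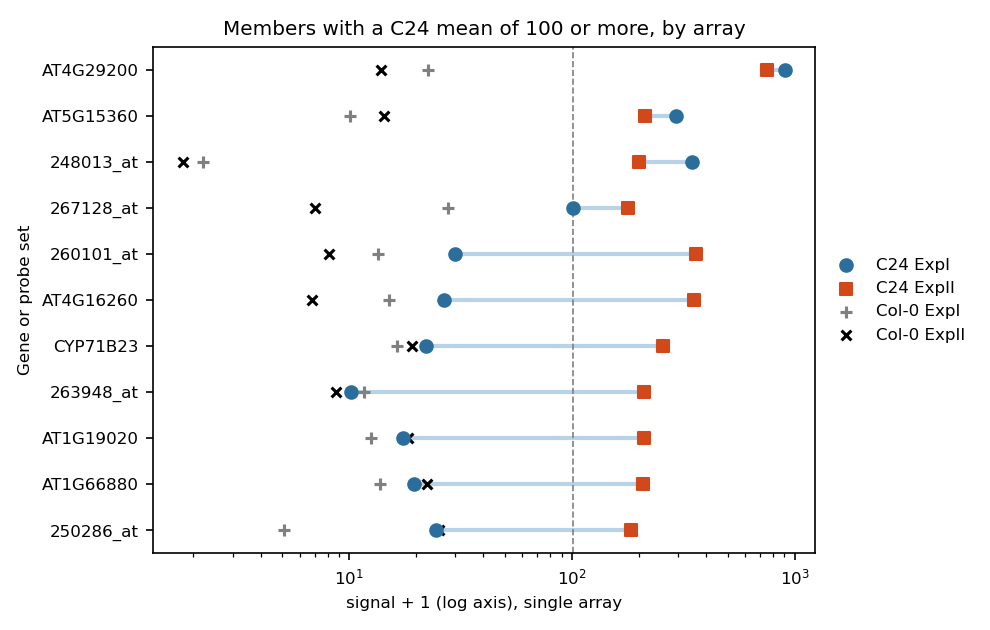
Signal + 1 on a log axis (horizontal) for the 11 members with a C24 mean of 100 or more (vertical), with a bar joining C24 ExpI and ExpII, and Col-0 ExpI and ExpII as crosses. The upper 4 members have both C24 arrays at 100 or more, and the lower 7 have 9.2 to 28.8 on ExpI and 184.1 to 360.2 on ExpII.

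Among the members bright on C24 ExpII only, AT4G16260, a glycosyl hydrolase of the beta-1,3-glucanase type, had 25.7 on ExpI and 353.1 on ExpII, against 14.1 and 5.8 in Col-0, and at most 14.8 in any other accession. CYP71B23, a cytochrome P450 gene, had 21.2 and 256.6 on the C24 arrays, against 15.4 and 18.2 in Col-0. AT1G19020 had 16.4 and 209.3, against 11.5 and 17.3, and AT1G66880, of the protein kinase family, had 18.5 and 207.3, against 12.7 and 21.4. The unnamed 263948_at had 9.2 and 209.8, against 10.6 and 7.7, and 250286_at had 23.5 and 184.1, against 4.1 and 24.4. In 5 of these 6 members the C24 ExpI array was within the range of the accessions that did not carry them, and in AT4G16260 it was above that range. The seventh, 260101_at, had 28.8 and 360.2 on the C24 arrays and also 101 in Stw and 99 in Ler, against 9.80 in Col-0.

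This difference between the C24 arrays was not particular to the members. Over all 22596 probe sets, 97 (0.429%) had a signal on C24 ExpII of at least 100 and at least 5 times that on ExpI, among them these 7 members, and 11 had the reverse. Between the Col-0 arrays the same limits gave 4 probe sets higher on ExpII and 0 higher on ExpI. Since the members were chosen by a C24 mean that included ExpII, the 7 cannot be read against the 0.429%. Without C24 ExpII there were 35 members, 4 carried by C24, and without C24 ExpI there were 70, 41 carried by C24.

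Marker genes differed between the C24 arrays too. Here a gene is called measured only where the annotation named a probe set for it alone. Of 7 pollen genes 4 were measured, and their summed signal was 218.5 on C24 ExpII and 100.8 on C24 ExpI, within 64.3 to 218.5 over the 12 arrays. Of these genes 3 were higher on ExpII, with BUPS1, a receptor-like kinase of the pollen tube, at 143.2 and 57.2, and no pollen gene was at 0 on any array. Of 17 defence genes 3 were measured, and their sum was 262.2 on C24 ExpII and 1304.7 on C24 ExpI, within 262.2 to 2485.6 over the arrays, for which THI2.1, a thionin gene, gave 254.0 and 1287.0. Both measured tapetum genes of 4 listed, A9 and AMS, went different ways, with 480.9 on C24 ExpII and 787.8 on C24 ExpI for A9, and 190.0 and 177.8 for AMS, and their sum was 670.9 and 965.6, within 282.1 to 965.6 over the arrays. The part of these differences in the 7 members was not tested.

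The remaining members had Da, Rsch, RLD, Ler or Stw as their single carrier. AT2G45940 had 134.2 in Da, 73.1 in Rsch, 55.8 in Cvi and 47.2 in RLD, against a Col-0 mean of 8.45, and C24, Ler, Sap, Stw and Ws lay between 1.7 and 14.3. AT2G04020, a GDSL-type lipase gene, had 116.2 in Da, against 9.1 and 10.7 in Col-0, while the other accessions covered 24.6 to 66.4 and none was at 20 or less. In Rsch, the transcribed pseudogene AT2G12050 had 247.5, against 22.2 and 16.2 in Col-0 and 16.1 to 37.5 elsewhere, a 6.45-fold step. AT2G19980, of the family of secreted CAP proteins that includes PR-1, had 106.4 in Rsch and 54.6 and 122.3 on the C24 arrays, against 6.3 and 1.2 in Col-0, and 0.9 in Sap and in Ws. AT1G49500 had 123.7 in Ler, against 29.7 and 5.3 in Col-0, whose duplicates lay on both sides of the limit. AT5G37980, of the zinc-binding dehydrogenase family, had 136.5 in Stw, against 5.4 and 24.1 in Col-0, and was the only member that rested on Stw or Sap alone.

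BCAT4, the aminotransferase that starts methionine chain elongation for aliphatic glucosinolates, the mustard oil precursors of the family, had the smallest largest step among the named genes, 1.93-fold. Its signal was 110.5 in RLD and 78.9 and 34.6 on the C24 arrays, against 17.1 and 21.0 in Col-0, and the other accessions covered 24.6 to 55.6. Its ratio of RLD to Col-0, 5.80, was the lowest highest-to-Col-0 ratio of the members. Of 16 genes listed for glucosinolate synthesis and breakdown, 3 were measured by a probe set of their own, and AOP3, which makes hydroxyalkyl glucosinolates, was set aside. GSL-OH, a dioxygenase of the same pathway, also had its highest signal in RLD, with 397.6 and with 308.7 in Sap, against 178.8 and 151.5 in Col-0, and it had 17.5 and 48.5 on the C24 arrays. AOP1 had 79.9 to 227.2 over the arrays, with the highest value in Stw. Neither was dim in Col-0, and so neither was a member.

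Near the limits the choice was arbitrary. Just inside the Col-0 limit were 252639_at with 19.6 and 256356_s_at with 19.4, and just outside were AT1G19540 with 20.45 and AT1G50290 with 20.5, which had 317.1 in Ler. Just inside the limit of 100 were AT3G29787 with 100.3 in Da and 245443_at with 100.7 in Ws. Just outside were 253046_at with 98.35 and 245148_at with 97.9, both in C24. The number of members was 20 with a Col-0 limit of 10, 72 with 30, 172 with a limit of 50 in another accession and 9 with 200.

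Pairs of accessions were compared by the members that one carried and the other had at 20 or less. Over the 36 pairs without Col-0 the number of such members was 0 to 18 with a median of 6, and C24 and Ws were the most opposed with 18. The arrays with conflicting labels, Sap and Stw, were opposed for 1 member (260101_at), Sap and RLD for 2 (AT5G41660 and 253689_at), and RLD and Stw for 0. Some other pairs with Sap or Stw were low as well, with 1 for Rsch and Stw. C24 and Stw, Da and Sap, and Da and Stw had 3 each. Of the pairs without Sap and Stw, RLD and Rsch were lowest with 2. Da and RLD, and RLD and Ws, followed with 4 each. Accessions that carried few members could be opposed for few, and which RNA the arrays hold was not tested. Without Sap and Stw, 40 of the members were found.

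Gene annotation placed the named members on all of chromosomes 1 to 5. A single locus was named for 25 members, several genes for 1, and none for 15. Of the 25, 22 were protein-coding and 3 (12.0%) were pseudogenes of any kind, against 7.40% of the 13352 probe sets with a named locus. By chromosome, 4, 8, 4, 5 and 4 of the 25 lay on chromosomes 1 to 5, against 25.8%, 16.4%, 20.6%, 14.7% and 22.5% of the named probe sets. Chromosome 2 thus held the most members, 8 of 25, against 16.4% of the named probe sets, a difference that was not tested. No pair of members lay within 5 annotated genes of each other, and the closest pair, AT2G20560 and AT2G19980 on chromosome 2, had 68 genes between them and different carriers. No member locus had a second probe set named for it. Probe sets whose suffix marks shared probes were 3 of the 41, against 4.60% of all.

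Whether the members followed saiginol production was examined without Col-0, whose low signal the choice had fixed. The choice also used the values compared here, since each member had to reach 100 in at least 1 of these 9 accessions, of either kind, so the members' values in this fit are a description and only the fit over all probe sets is a test. The 5 producers were compared with the 4 other non-producers on log2(signal + 1), with limma over all 22596 probe sets. In this fit 0 of the 41 members passed an adjusted p of 0.05, and 0 of all probe sets did (0%), with smallest adjusted p of 0.744 among members and 0.160 among all. At an unadjusted p under 0.05 there were 5 members, and 1467 of all probe sets (6.49%). Because the choice of members used these values, the 5 cannot be read against that share. Producers and non-producers did not overlap for 0 of the 41 members and for 516 of all probe sets (2.28%). Among all probe sets, producers were wholly higher in 184 (0.814%) and wholly lower in 332 (1.47%). The 0 cannot be read against these shares either, for the same reason.

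The 5 members at an unadjusted p under 0.05 were named after their values were seen. AT2G45940 averaged 63.8 ± 45.8 in producers (SD, n = 5 accessions) and 9.15 ± 5.56 in non-producers (SD, n = 4), or 2.52 higher on the log2 scale (standard error 0.76, limma adjusted p = 0.744). C24, with 8.8, was the producer as dim as the non-producers. AT2G19980 averaged 54.0 ± 40.7 in producers and 9.78 ± 14.0 in non-producers, or 2.97 higher on the log2 scale (standard error 0.91, limma adjusted p = 0.744), with Stw at 30.4 above Cvi and Da. Lower averages in producers were found for AT4G19240, with 7.46 ± 6.47 and 92.2 ± 98.2 (log2 difference -2.49), for AT4G27654, with 23.9 ± 15.8 and 61.8 ± 38.7 (log2 difference -1.41), and for 256356_s_at, with 18.2 ± 11.4 and 54.9 ± 45.0 (log2 difference -1.37). None of the 5 passed the adjusted threshold, and in each the groups overlapped. Without Sap and Stw, the groups of 5 and 2 did not overlap for 8 members (19.5%), against 9.41% of all probe sets. Several of the 8, such as AT4G19240 and AT2G20560, had been chosen by a high signal in Ws or Ler, the non-producers left. The 8 therefore cannot be read against that share. The flower tissue could be checked by few markers, since 0 of 9 floral organ identity genes had a probe set named for them alone. The tapetum gene A9 had 247.6 to 899.2 on all arrays, and the root gene PYK10 had 7.8 to 17.7.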

How the data were processed

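RNA of flowers was labelled and hybridized to ATH1 arrays, 12 in number. The deposited values are linear signal intensities of the probe sets, which the authors had scaled array by array, since the mean of each array without its highest and lowest 2% was 100.0. The summarization software is not given in the sources used here. Values ran from 0 to 6513.9 over 22810 probe sets, of which 64 controls and 150 organelle probe sets were left out. No further normalization was applied, and the number of arrays limits the precision. If duplicates share RNA, their spread is technical.

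The arrays of C24 and of Col-0 were averaged on the linear scale to give 10 accession values. The members and all gene lists were chosen with earlier results of these data known. Genes were named through the platform annotation, updated with RefSeq, and a member without a name there is given by its probe set. C24 and Col-0 were not tested against each other, since the choice of members had used both. Producers, as named in the study's methods, were compared with the 4 non-producers other than Col-0 in limma 3.58.1 (R 4.3.3), on log2(signal + 1) with Benjamini-Hochberg adjustment at 0.05. Fold changes on this scale are understated for dim genes. The procedure was tested on simulated data.

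By rule, the text names the 3 named members with the highest signal for each single carrier, for 2 to 4 carriers and for 5 or more, members with a gene symbol, the 4 unnamed members with the highest signal, and the probe sets nearest the limits. The other members were added after their values were seen. Families could not be counted, as the annotation used here gave no product descriptions, and roles are general background. Of the other gene lists, 0 of 2 leaf, 0 of 5 seed and 0 of 10 flowering time genes had a probe set named for the gene alone in the annotation used here. As alternatives, both limits were varied, arrays were rescaled by quantiles or medians, the pseudocount was set to 16 or 64, the dimmest 25% of probe sets were dropped, limma's variance trend and robust prior were used, and Sap with Stw, single accessions, single duplicates, or probe sets marked _s_at or _x_at were left out.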

Additional observations from a re-analysis of the deposited data

Results flagged for a closer look

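The 5 members with an unadjusted p under 0.05 between producers and non-producers in limma gave 10 groups of accessions. These groups were searched for a single value far from the rest, and 1 was found. The choice of the 5 members used these same values, so no chance rate can be set beside that count. AT4G19240 had a signal of 19.0 in RLD and 4.1 to 5.1 in the other 4 producers, a gap over range of 0.869 on the log2(signal + 1) scale. RLD has 1 array, and its signal was close to that of Stw (17.1) and under the limit of 20.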

How the results depend on the processing

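The number of members, 41, was 20 and 72 with Col-0 limits of 10 and 30, 27 with the limit set on each Col-0 array, 172 and 9 with limits of 50 and 200 in another accession, and 12 with at least 2 carriers. It ranged from 33 to 70 without 1 of the 8 accessions with a single array or 1 duplicate array, with 33 without Ws and 70 without C24 ExpI. Members carried by 1 accession alone, 29, were 6 with a limit of 200 and 24 to 57 without 1 duplicate, with 57 without C24 ExpI. After quantile normalization and after median centring there were 41 members each, 40 of them shared with those as deposited. In the comparison of producers with non-producers, members past the adjusted threshold of limma stayed at 0 under all 19 alternatives, with a smallest adjusted p of 0.179 to 0.919. All probe sets past it, 0 as deposited, were 5 and 4 with pseudocounts of 16 and 64 and 0 to 3 without 1 accession or duplicate (3 without Sap). Members whose groups did not overlap, 0, were 8 without Sap and Stw (19.5%, against 9.41% of all probe sets). They were 0 to 2 without 1 accession (2 without Da, Sap or Stw). Those 2 were 4.88% of members, against 4.59% of all probe sets without Da, 4.15% without Sap and 4.28% without Stw. As the choice of members used these values, neither the 8 nor the 2 can be read against the shares of all probe sets. The causes were not tested. The log2 difference of the highest accession over Col-0 has a direction fixed by the choice of members, and with a pseudocount of 16 its size moved for 21 of the 25 named members. No paired analysis was possible because the choice of members used C24 and Col-0, the only accessions that share replicate numbers, and the tested comparison leaves Col-0 out. With 1 array for 8 accessions and signals near the background in Col-0, array spread within an accession is known for C24 and Col-0 alone.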
